A study of Mus musculus with 24 samples.

Results

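The 10 genes described here belong to bone morphogenetic protein (BMP) and ALK1 signalling. They are the ligands Bmp4 and Bmp6, the receptors Acvrl1 (ALK1) and Bmpr2, the coreceptor Eng (endoglin), the inhibitory Smads Smad6 and Smad7, and the Id genes Id1, Id2 and Id3. They were chosen by name as ligands, receptors and targets of the pathway, and all 10 were found among the 35727 genes of the count table. All 10 also passed the filter on low counts, which 14804 genes passed. The data are RNA sequencing read counts of mouse heart fibroblasts kept in EGM2, an endothelial growth medium, from 24 libraries in 8 groups of 3. The groups were SEG, Erg, Sox17 and control at day 3, and the same conditions at day 7. The labels give the control cells as fibroblasts and the cells of the other conditions as iEC. The question was how far each condition takes on endothelial gene expression. The labels do not spell out SEG. The sources used here do not give the delivery of the factors, their promoter, the mouse strain or the age.

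BMP ligands bind a pair of type I and type II receptors at the cell surface, which phosphorylate Smad1, Smad5 and Smad9. These join Smad4 in the nucleus and switch on target genes, among them the Id genes and the genes of the inhibitory Smads, which damp the signal. In endothelial cells the type I receptor ALK1, with endoglin, answers mainly to the circulating ligands Gdf2 (BMP9) and Bmp10, and in humans mutations of ENG or ACVRL1 cause hereditary haemorrhagic telangiectasia. Erg, of the ETS family, and Sox17, of the SOX family, are transcription factors of endothelial cells.

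Levels are given as CPM, read counts set against the scaled size of the library. Erg itself was at 1254 to 1281 CPM in SEG libraries and 7039 to 7133 CPM in Erg libraries at day 3, and at 836 to 1039 CPM in SEG libraries and 4327 to 5809 CPM in Erg libraries at day 7. Sox17 was at 955 to 1054 CPM in SEG libraries and 1549 to 1653 CPM in Sox17 libraries at day 3, and at 461 to 819 CPM in SEG libraries and 616 to 1322 CPM in Sox17 libraries at day 7. Erg reached at most 0.113 CPM in control libraries, and Sox17 had 0 counts there. SEG libraries therefore held both factors, each at a lower level than the matching single condition except where the Sox17 ranges overlap at day 7. At day 7, 2 libraries stood apart. Sox17 replicate 1 had 8.21% of its counts in ribosomal protein genes and 0.880% in mitochondrial genes, and SEG replicate 1 had 5.63% and 1.47%, against 3.29% to 5.13% and 1.39% to 2.01% in the other 22 libraries. The labels do not say that replicates were separate cultures, and the spread behind each p-value may therefore be technical.

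The label iEC was checked against markers fixed as lists. The summed level of 10 endothelial genes such as Cdh5 and Pecam1 was 2066 to 2364 CPM in SEG, 165 to 176 CPM in Erg and 163 to 390 CPM in Sox17 libraries at day 7, against 28.7 to 32.3 CPM in control libraries. The summed level of 8 fibroblast genes such as Col1a1 was 16670 to 18281 CPM in SEG, 8851 to 9849 CPM in Erg and 5349 to 8667 CPM in Sox17 libraries at day 7, against 21442 to 23100 CPM in control libraries. The sums follow the most abundant of the 8 genes. Gene by gene, 1 was called higher and 6 lower in SEG, 8 lower in Erg and 8 lower in Sox17 at day 7, with median log2 changes of -3.65, -1.44 and -3.30, so by the median SEG lay farther from control than Erg did. Every condition labelled iEC thus still held fibroblast transcripts, and the endothelial sum of Erg and Sox17 libraries was well under that of SEG libraries. In these bulk samples, fewer cells of a type and less RNA per cell cannot be told apart.

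Relative to control, Bmp4 rose in all 3 factor conditions at both days, and the ALK1 receptor genes moved in opposite directions with Erg and with Sox17. Acvrl1 and Eng rose with Erg and fell with Sox17, and in SEG libraries Eng fell at both days and Acvrl1 at day 7. Bmp6 rose with Sox17 and SEG, and Smad6 rose with Sox17 and SEG at day 7 but not at day 3. A gene was called when its Benjamini-Hochberg adjusted p from edgeR's quasi-likelihood test was under 0.05. At day 3, 6 of the 10 genes were called in SEG (3 higher, 3 lower), 6 in Erg (5 higher, 1 lower) and 6 in Sox17 (3 higher, 3 lower), where 40.2%, 46.1% and 40.4% of all genes tested were called. At day 7, 9 were called in SEG (6 higher, 3 lower), 6 in Erg (4 higher, 2 lower) and 9 in Sox17 (6 higher, 3 lower), where 44.3%, 48.5% and 54.5% of all genes were called. Of all genes at day 3, 20% were called higher and 20.2% lower in SEG, 22.6% and 23.5% in Erg and 20.8% and 19.6% in Sox17. At day 7 those shares were 22.5% higher and 21.8% lower in SEG, 23.7% and 24.8% in Erg and 29.5% and 25% in Sox17. The counts of 6 lie near those background shares, and nothing is read from the counts about the 10 genes as a set. In fits of only the groups compared, the counts were 8 in SEG, 9 in Erg and 8 in Sox17 at day 3 and 9, 7 and 7 at day 7. The calls gained were Acvrl1 and Id1 in SEG, Bmpr2, Bmp6 and Id3 in Erg and Smad7 and Id1 in Sox17 at day 3, and Bmp6 in Erg at day 7, and those lost were Smad7 and Id1 in Sox17 at day 7. Of all genes, those fits called 8542, 9662 and 8103 at day 3 and 6479, 9165 and 4314 at day 7. The whole fit called 5946, 6827 and 5987 at day 3 and 6557, 7182 and 8062 at day 7.

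**Figure D1:**
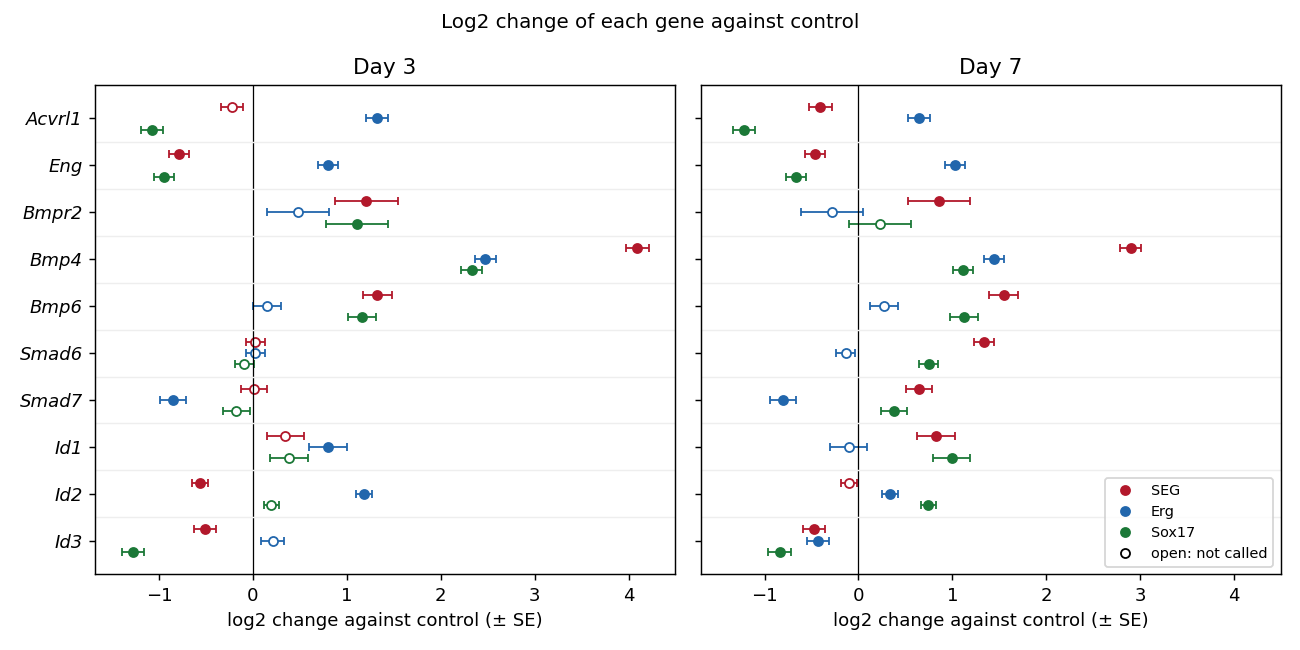
Log2 change of each of the 10 genes against control (x axis, bars ± SE) in SEG, Erg and Sox17 libraries at day 3 and day 7, 3 libraries a group, with open points for changes not called. Bmp4 lies right of 0 in all 6 comparisons, while Acvrl1 and Eng lie right of 0 with Erg and left of it with Sox17 and SEG.

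Promoter sequences are shown for Bmp4, Eng and Smad6, which carry the main contrasts of ligand, receptor and inhibitory Smad, so that the letters before their start sites can be read beside the values. RefSeq windows of GRCm38.p6, running from 250 bases before the start to shortly past it, were matched for 7 of the 10 genes (Bmpr2, Eng, Id3, Smad6, Id2, Bmp6 and Bmp4). For the 3 printed genes the RefSeq start is also the GENCODE gene start. Each line gives the 250 bases before the start, 5′ to 3′ on the gene's own strand, with capitals for GGAA or its complement TTCC (the core of ETS motifs) and for ACAAT or its complement ATTGT (the core of SOX motifs).
Bmp4, chr14:46390670-46390919, minus strand: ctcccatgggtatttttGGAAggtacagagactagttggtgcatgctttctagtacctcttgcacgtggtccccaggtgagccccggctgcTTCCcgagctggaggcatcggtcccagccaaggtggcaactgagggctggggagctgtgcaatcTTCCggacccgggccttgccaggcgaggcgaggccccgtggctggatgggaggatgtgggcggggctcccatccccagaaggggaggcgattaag
Eng, chr2:32646345-32646594, plus strand: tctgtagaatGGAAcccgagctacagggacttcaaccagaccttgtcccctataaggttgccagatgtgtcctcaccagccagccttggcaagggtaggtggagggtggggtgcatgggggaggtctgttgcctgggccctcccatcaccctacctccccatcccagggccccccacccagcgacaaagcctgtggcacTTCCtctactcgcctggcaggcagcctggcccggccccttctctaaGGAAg
Smad6, chr9:64022060-64022309, minus strand: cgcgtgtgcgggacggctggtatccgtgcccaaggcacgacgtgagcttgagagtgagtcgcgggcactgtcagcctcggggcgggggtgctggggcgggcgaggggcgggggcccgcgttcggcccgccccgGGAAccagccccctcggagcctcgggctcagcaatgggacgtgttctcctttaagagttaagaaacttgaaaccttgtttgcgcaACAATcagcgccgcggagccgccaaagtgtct
In every window, both strands of the 250 bases before the start were searched, and the matches below refer to that stretch only. GGAA was found in 6 of the 7 windows (not in that of Bmp6) and in 93.4% of all 32851 RefSeq windows of the table, so its presence separates little. The longer ETS form CCGGAA, which overlaps GGAA, was found in Bmp4 alone and in 12% of all windows. ACAAT was found in Smad6 alone and in 27.7% of all windows. Of 2 Smad motifs, GGCGCC was found in Bmpr2 and Id2 and in 9.59% of all windows, and CAGAC in Eng, Id3 and Bmp6 and in 42.2% of all windows. A match is a description of these letters and no measurement of binding.

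Of the ligands, Bmp4 (chromosome 14, GRCm38, 46383520 to 46390669, minus strand), a BMP made by mesoderm and mesenchyme, had the highest ratio between its highest and lowest group mean among the 10 genes. Bmp4 at day 3 stood at 88.9, 91.5 and 86.5 CPM in SEG libraries, 25.9, 32.0 and 28.9 CPM in Erg libraries and 28.5, 24.1 and 25.8 CPM in Sox17 libraries, against 4.35, 5.94 and 5.27 CPM in control libraries. Bmp4 at day 7 stood at 108, 116 and 111 CPM in SEG libraries, 45.3, 38.9 and 38.2 CPM in Erg libraries and 32.7, 33.0 and 31.9 CPM in Sox17 libraries, against 16.7, 13.8 and 14.6 CPM in control libraries. At each day every SEG library was above every library of the single factors, and every one of those was above control. The log2 change against control at day 3 was 4.10 ± 0.12 (SE) in SEG (adjusted p = 1.1e-15), 2.48 ± 0.11 in Erg (adjusted p = 9.9e-13) and 2.33 ± 0.11 in Sox17 (adjusted p = 1.4e-12). At day 7 it was 2.9 ± 0.11 in SEG (adjusted p = 2.0e-14), 1.44 ± 0.11 in Erg (adjusted p = 9.2e-10) and 1.12 ± 0.11 in Sox17 (adjusted p = 2.2e-08). Control Bmp4 was itself higher at day 7 than at day 3, by 1.53 ± 0.11 on the log2 scale (adjusted p = 3.2e-09), so the day 7 changes are set against a higher control level.

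Bmp6 (chromosome 13, 38345107 to 38500302, plus strand), a BMP that endothelial cells of the liver use to steer hepcidin and iron levels, was higher in SEG and Sox17 libraries. It stood at 400.4, 394 and 399.6 CPM in SEG, 176, 182 and 171 CPM in Erg and 375, 345 and 346 CPM in Sox17 libraries at day 3, against 155, 161 and 161 CPM in control libraries. Bmp6 at day 7 stood at 448, 542 and 544 CPM in SEG, 227, 210.4 and 197 CPM in Erg and 244, 438 and 464 CPM in Sox17 libraries, against 178, 181 and 166 CPM in control libraries. SEG and Sox17 libraries were all above control and above Erg, although Sox17 replicate 1 at day 7 was far below its group's other libraries. Bmp6 rose by 1.32 ± 0.15 (log2, adjusted p = 5.9e-07) in SEG and 1.16 ± 0.15 (adjusted p = 2.8e-06) in Sox17 libraries at day 3, and by 1.55 ± 0.15 (adjusted p = 5.7e-08) and 1.13 ± 0.15 (adjusted p = 3.2e-06) at day 7. In Erg libraries the change was 0.15 at day 3 and 0.27 at day 7, with adjusted p of 0.44 and 0.15. The longest overlap of a Bmp6 exon with an exon of Txndc5, a gene of protein folding on the other strand, was 224 bases. Txndc5 had 1095783 counts in all against 186460 for Bmp6. Txndc5 also rose, to 3167 ± 124 CPM in SEG and 2781 ± 61.6 CPM in Sox17 libraries at day 3 against 603 ± 14.6 CPM in control libraries (log2 changes 2.39 and 2.21, adjusted p 2.0e-16 and 4.3e-16). The strand setting of the counting is not stated, so reads of the shared stretch cannot be told apart, and their part in the Bmp6 result was not tested.

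**Figure D2:**
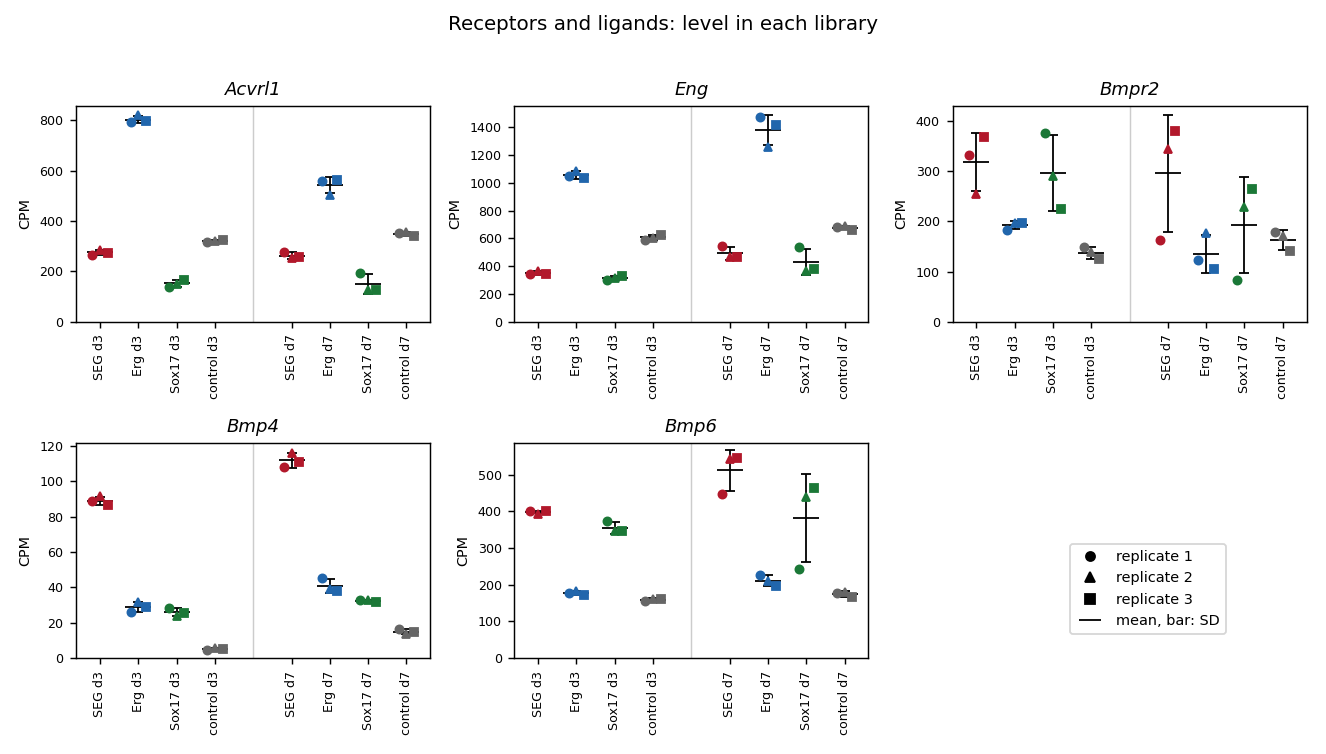
CPM of the receptor and ligand genes in each of the 24 libraries (symbols by replicate number), with the mean and SD of each group of 3. Bmp4 is highest in SEG libraries, Acvrl1 and Eng are highest in Erg libraries, and Bmpr2 scatters widely within SEG and Sox17 groups.

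Acvrl1 (chromosome 15, 101128522 to 101145336, plus strand) encodes ALK1, the type I receptor for Gdf2 and Bmp10. Acvrl1 at day 3 stood at 267, 287 and 275 CPM in SEG, 793, 821 and 797 CPM in Erg and 139, 151 and 167 CPM in Sox17 libraries, against 317, 321 and 326 CPM in control libraries. Acvrl1 at day 7 stood at 279, 255 and 255 CPM in SEG, 561, 506 and 564 CPM in Erg and 195, 127 and 127 CPM in Sox17 libraries, against 351, 355 and 339 CPM in control libraries. At both days Erg libraries were the highest and Sox17 libraries the lowest, with control above SEG and no overlap between any of the conditions. Acvrl1 rose with Erg by 1.32 ± 0.12 on the log2 scale at day 3 (adjusted p = 1.7e-08) and by 0.64 ± 0.12 at day 7 (adjusted p = 0.00015). With Sox17 the change was -1.08 ± 0.12 at day 3 (adjusted p = 2.8e-07) and -1.22 ± 0.12 at day 7 (adjusted p = 3.9e-08). In SEG libraries it was -0.22 ± 0.12 at day 3, not called (adjusted p = 0.15), and -0.40 ± 0.12 at day 7 (adjusted p = 0.0081). The SEG condition, with the highest endothelial marker sum, therefore had less Acvrl1 transcript than control cells at day 7.

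Eng (chromosome 2, 32646595 to 32682669, plus strand), whose product presents ligand to ALK1 and is found on endothelial and mesenchymal cells, also rose with Erg and fell with Sox17 and SEG. It stood at 343, 366 and 344 CPM in SEG, 1045, 1085 and 1034 CPM in Erg and 303, 311 and 328 CPM in Sox17 libraries at day 3, against 588, 605 and 627 CPM in control libraries. Eng at day 7 stood at 544, 463 and 468 CPM in SEG, 1471, 1256 and 1413 CPM in Erg and 535, 363 and 382 CPM in Sox17 libraries, against 681, 687 and 662 CPM in control libraries. Erg libraries were above control and SEG and Sox17 libraries below it at both days, without overlap. The log2 change with Erg was 0.80 ± 0.11 at day 3 (adjusted p = 4.5e-06) and 1.03 ± 0.11 at day 7 (adjusted p = 1.7e-07). With SEG it was -0.79 ± 0.11 (adjusted p = 5.7e-06) and -0.46 ± 0.11 (adjusted p = 0.0015), and with Sox17 -0.95 ± 0.11 (adjusted p = 4.6e-07) and -0.66 ± 0.11 (adjusted p = 3.1e-05), at day 3 and day 7. Macrophage markers moved with the Erg groups and with SEG. Their sum over 12 genes, none at 0 counts in a whole group, was 817 to 849 CPM in Erg libraries at day 7 against 159.6 to 204 CPM in control libraries, with 12 of 12 called higher, and 186 to 202 CPM against 128.5 to 128.9 CPM at day 3, with 4 of 12 called higher. In SEG it was 231 to 311 CPM at day 7, with 6 of 12 called higher and 1 lower, and 176 to 189 CPM at day 3, with 2 called higher and 2 lower. Their part in the Acvrl1 and Eng results was not tested. The longest overlap of an Eng exon with an exon of Fpgs, on the other strand, was 61 bases. Fpgs had 12403 counts in all, set beside 394554 for Eng. With exons of predicted genes on the other strand, the longest overlap was 87 bases for Acvrl1 and 89 bases for Bmp4.

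Bmpr2 (chromosome 1, 59763400 to 59879014, plus strand), the type II receptor whose loss in humans causes pulmonary arterial hypertension, had the largest SE of the 10 genes in the comparisons with control. Bmpr2 at day 3 stood at 332, 254 and 367 CPM in SEG, 183, 197 and 197 CPM in Erg and 376, 289.8 and 224 CPM in Sox17 libraries, against 149, 139 and 125 CPM in control libraries. Bmpr2 at day 7 stood at 163, 345 and 380.4 CPM in SEG, 122, 176 and 104 CPM in Erg and 83.8, 227 and 265 CPM in Sox17 libraries, against 178, 171 and 140.4 CPM in control libraries. All SEG and Sox17 libraries were above control at day 3, whereas at day 7 replicate 1 of both groups, the same libraries that stood apart, stood within or below the control range. Bmpr2 rose by 1.21 ± 0.33 in SEG (adjusted p = 0.0064) and 1.11 ± 0.33 in Sox17 libraries (adjusted p = 0.011) at day 3, and by 0.86 ± 0.33 in SEG libraries at day 7 (adjusted p = 0.042). The day 3 call in Sox17 was lost without Sox17 replicate 1 (0.90, adjusted p = 0.061). The day 7 call in SEG was lost on leaving out SEG replicate 2 or 3 or any 1 control library, down to 0.64 (highest adjusted p 0.18), and stood at 1.19 without SEG replicate 1. It was also lost with the replicate number as a block (0.83, adjusted p = 0.059). The changes in Erg (0.48 and -0.28 at day 3 and day 7) and in Sox17 at day 7 (0.23) were not called. Without Sox17 replicate 1 and SEG replicate 1, that last change was 0.63 and called (adjusted p = 0.0061).

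Per kilobase of exon, Eng and Id3 had the highest group means of the 10 genes and the top levels of Bmpr2 and Id2 were the lowest. Group means ran from 77.6 to 341 CPM per kb for Eng and from 88.3 to 303 CPM per kb for Id3. They ran from 35.1 to 188 CPM per kb for Acvrl1, from 40.7 to 131 CPM per kb for Bmp6 and from 2.31 to 49.8 CPM per kb for Bmp4. For Bmpr2 they ran from 7.46 to 17.7 CPM per kb and for Id2 from 6.85 to 28.3 CPM per kb. For the remaining genes they ran from 32.5 to 90.2 CPM per kb (Smad6), 11.8 to 39.7 CPM per kb (Smad7) and 53.6 to 158 CPM per kb (Id1). The ceiling of Bmpr2 was thus below the floor of Acvrl1 and of Eng. On this per-length scale Bmpr2 was under Acvrl1 in all 8 groups. The order depends on the exon length over all annotated transcripts, 17983 bases for Bmpr2 and 4265 bases for Acvrl1. In mean CPM, Bmpr2 was above Acvrl1 in the SEG and Sox17 groups at both days and below it in the Erg and control groups.

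Smad6 (chromosome 9, 63953076 to 64022059, minus strand), an inhibitory Smad that acts mainly on BMP signals, did not differ by a call from control at day 3 in any condition. Smad6 at day 3 stood at 121, 121 and 119.8 CPM in SEG, 128, 125 and 108 CPM in Erg and 129, 103 and 101 CPM in Sox17 libraries, against 108, 121 and 126 CPM in control libraries. Smad6 at day 7 stood at 289, 283 and 295 CPM in SEG, 108, 104 and 101 CPM in Erg and 162, 200.1 and 214 CPM in Sox17 libraries, against 114, 121 and 108 CPM in control libraries. The groups overlapped at day 3, and at day 7 all SEG libraries stood above all Sox17 libraries, which stood above control. Smad6 rose at day 7 by 1.34 ± 0.10 in SEG (adjusted p = 1.5e-09) and 0.75 ± 0.10 in Sox17 libraries (adjusted p = 3.9e-06), and the Erg change was -0.14 ± 0.10 (adjusted p = 0.29). At day 3 the changes were 0.03, 0.03 and -0.09 in SEG, Erg and Sox17, with adjusted p of 0.88, 0.87 and 0.53.

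Smad7 (chromosome 18, 75367529 to 75395935, plus strand), which blocks both BMP and TGF-beta receptors, fell with Erg. It stood at 101, 96.4 and 93 CPM in SEG, 53.0, 55.3 and 51.3 CPM in Erg and 90.4, 84.4 and 80.1 CPM in Sox17 libraries at day 3, against 92.1, 101 and 95.1 CPM in control libraries. Smad7 at day 7 stood at 163, 188 and 188 CPM in SEG, 62.4, 69.3 and 65.8 CPM in Erg and 98.7, 171 and 179 CPM in Sox17 libraries, against 115, 116 and 114 CPM in control libraries. Erg libraries were the lowest at both days without overlap, and at day 7 all SEG libraries were above control, while Sox17 replicate 1 was below it. The log2 change with Erg was -0.85 ± 0.14 at day 3 (adjusted p = 5.0e-05) and -0.80 ± 0.14 at day 7 (adjusted p = 9.3e-05). Smad7 rose in SEG libraries at day 7 by 0.64 ± 0.14 (adjusted p = 0.00078). In Sox17 libraries at day 7 the change was 0.38 ± 0.14 (adjusted p = 0.027). That call was lost with only Sox17 and control libraries of the day in the fit (0.37, adjusted p = 0.27), and without Sox17 replicate 2 or 3 or any 1 control library, down to 0.27 (adjusted p up to 0.10), and the value was 0.61 without Sox17 replicate 1.

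**Figure D3:**
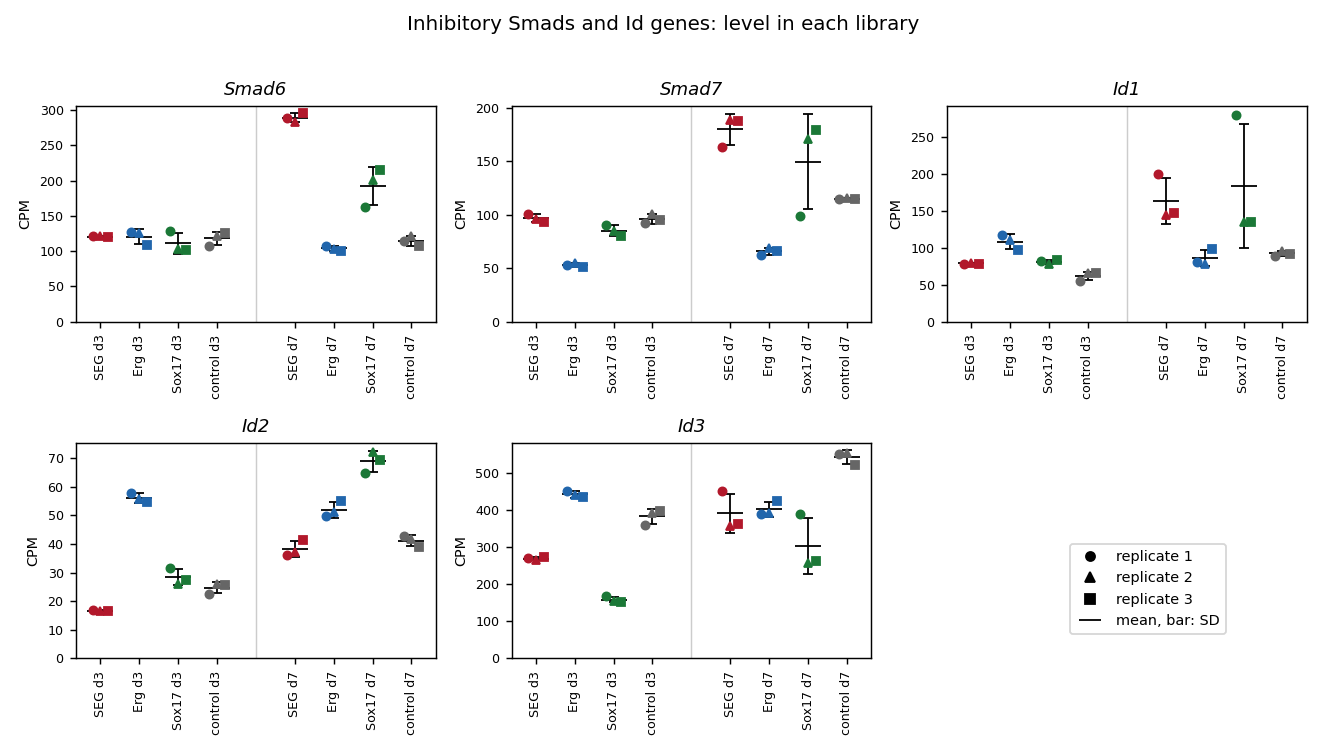
CPM of the inhibitory Smad and Id genes in each of the 24 libraries (symbols by replicate number), with the mean and SD of each group of 3. Smad6 ranges overlap between conditions at day 3 and the gene is highest in SEG libraries at day 7, and Id1 of Sox17 replicate 1 at day 7 stands far above the other libraries of its group.

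The Id genes encode partners of bHLH factors that cannot bind DNA themselves, and are the usual readout of BMP signalling. They did not move together. Id1 (chromosome 2, 152736251 to 152737410, plus strand) stood at 78.6, 80.0 and 78.4 CPM in SEG, 117, 111 and 96.8 CPM in Erg and 81.9, 78.3 and 83.3 CPM in Sox17 libraries at day 3, against 55.6, 65.6 and 65.2 CPM in control libraries. Id1 at day 7 stood at 199.9, 144 and 147 CPM in SEG, 81.0, 78.1 and 98.6 CPM in Erg and 280.2, 135 and 135 CPM in Sox17 libraries, against 89.4, 96.2 and 91.5 CPM in control libraries. Replicate 1 was the highest library of both SEG and Sox17 at day 7, and the other libraries of both groups were still above all control libraries. Id1 rose with Erg at day 3 by 0.80 ± 0.20 (adjusted p = 0.0027), with SEG at day 7 by 0.83 ± 0.20 (adjusted p = 0.0021) and with Sox17 at day 7 by 0.99 ± 0.20 (adjusted p = 0.00033). The Sox17 value was 0.55 without Sox17 replicate 1, and with only Sox17 and control libraries of that day in the fit it missed the call (adjusted p = 0.060). The day 3 changes in SEG (0.35) and Sox17 (0.38) and the day 7 change in Erg (-0.10) were not called. In fits of only the groups compared, the day 3 changes of Id1 were called in SEG (0.34, adjusted p = 0.00033) and in Sox17 (0.38, adjusted p = 0.00049).

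Id2 (chromosome 12, 25093799 to 25097140, minus strand), known for its part in lymphoid and innate immune cells, was highest with Erg at day 3 and with Sox17 at day 7. It stood at 17.0, 16.5 and 16.6 CPM in SEG, 57.9, 55.6 and 54.7 CPM in Erg and 31.4, 26.0 and 27.5 CPM in Sox17 libraries at day 3, against 22.4, 26.1 and 25.6 CPM in control libraries. Id2 at day 7 stood at 36.1, 37.2 and 41.6 CPM in SEG, 49.7, 51.2 and 55.0 CPM in Erg and 65.0, 72.4 and 69.5 CPM in Sox17 libraries, against 42.7, 41.8 and 38.9 CPM in control libraries. SEG libraries were below control at day 3 without overlap, although Erg libraries were above it, and SEG and control overlapped at day 7. The log2 change at day 3 was -0.57 ± 0.08 in SEG (adjusted p = 1.7e-05), 1.18 ± 0.08 in Erg (adjusted p = 6.1e-10) and 0.20 ± 0.08 in Sox17 (adjusted p = 0.068). At day 7 it was -0.10 ± 0.08 in SEG (adjusted p = 0.34), 0.34 ± 0.08 in Erg (adjusted p = 0.0022) and 0.75 ± 0.08 in Sox17 (adjusted p = 2.2e-07).

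Id3 (chromosome 4, 136143497 to 136145755, plus strand) was the most abundant Id gene per length in every group. It stood at 269.6, 265 and 272 CPM in SEG, 453, 442 and 435 CPM in Erg and 167, 155 and 153 CPM in Sox17 libraries at day 3, against 361, 392 and 398 CPM in control libraries. Id3 at day 7 stood at 451, 358 and 364 CPM in SEG, 389, 392 and 425 CPM in Erg and 390.2, 257 and 262 CPM in Sox17 libraries, against 552, 555 and 521 CPM in control libraries. At day 7 every library of the 3 factor conditions was below every control library, unlike Id1. Id3 fell with Sox17 (log2 change -1.28 ± 0.12, adjusted p = 3.2e-08 at day 3, and -0.84 ± 0.12, adjusted p = 6.2e-06 at day 7) and with SEG (-0.51 ± 0.12, adjusted p = 0.0017, and -0.47 ± 0.12, adjusted p = 0.0028). With Erg the change was 0.21 ± 0.12 at day 3 (adjusted p = 0.17) and -0.43 ± 0.12 at day 7 (adjusted p = 0.0052). Smooth muscle and pericyte markers moved with the conditions. At day 3 their sum over 8 genes was 1574 to 1836 CPM in SEG, 1399 to 1439 CPM in Erg and 2123 to 2968 CPM in Sox17 libraries, against 1681 to 1749 CPM in control libraries, with 7, 3 and 5 of 8 called higher. The Erg sum at day 3 was below control although 3 genes were called higher, so other genes of the list had lower levels there. At day 7 it was 2231 to 2465 CPM in SEG, 924 to 1017 CPM in Erg and 2840 to 4628 CPM in Sox17 libraries, against 920.5 to 1012 CPM in control libraries, with 7, 4 and 5 of 8 called higher, none of the genes being at 0 in a whole group. Their part in the Smad6, Smad7 and Id results was not tested.

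Set against Erg alone, SEG libraries had less Acvrl1 and Eng and more Bmp4 and Bmp6 transcript at both days. At day 3, 7 of the 10 genes were called, where 51% of all genes were. Acvrl1 (-1.54 ± 0.12), Eng (-1.59 ± 0.11), Id2 (-1.75 ± 0.09) and Id3 (-0.72 ± 0.12) were lower in SEG, and Bmp4 (1.62 ± 0.10), Bmp6 (1.17 ± 0.15) and Smad7 (0.86 ± 0.14) higher. In a fit of only SEG and Erg libraries of day 3, Bmpr2 (0.70, adjusted p = 1.5e-05) was also called higher and Id1 (-0.47, adjusted p = 1.5e-05) lower. At day 7, 9 were called, where 49.4% of all genes were. Acvrl1 (-1.05), Eng (-1.49) and Id2 (-0.44) were again lower, and Bmpr2 (1.14), Bmp4 (1.45), Bmp6 (1.27), Smad6 (1.47), Smad7 (1.45) and Id1 (0.93) higher. Id3 missed the call at day 7 (-0.04 ± 0.12, adjusted p = 0.81).

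SEG was set against Sox17 alone in the same way. At day 3, 4 of 10 were called, where 28.3% of all genes were: Acvrl1 (0.86 ± 0.12), Bmp4 (1.77 ± 0.10) and Id3 (0.77 ± 0.12) were higher in SEG and Id2 (-0.76 ± 0.08) lower. At day 7, 6 were called, where 39.9% of all genes were. Acvrl1 (0.81 ± 0.12), Bmp4 (1.78 ± 0.10), Smad6 (0.59 ± 0.10), Bmp6 (0.42 ± 0.15) and Id3 (0.37 ± 0.12) were higher in SEG and Id2 (-0.85 ± 0.08) lower. In a fit of only these 2 groups, Bmp4, Smad6 and Id2 kept the call at day 7, while Acvrl1 (0.80, adjusted p = 0.051), Bmp6 (0.41, adjusted p = 0.39) and Id3 (0.35, adjusted p = 0.37) lost it. The Id3 call was also lost without SEG replicate 1 or Sox17 replicate 2 or 3 (0.25 to 0.27). The labels give no pairing of these 2 groups beyond the replicate number. With that number as a block in a fit of these 2 groups at day 7, the calls of Bmp6 (0.46, adjusted p = 0.094) and Id3 (0.37, adjusted p = 0.073) were lost. Bmpr2 was called in that fit (0.68, adjusted p = 0.017). Without Sox17 replicate 1, Bmp6 stood at 0.18 and missed the call (adjusted p = 0.060), Id3 stood at 0.59, and Eng, at 0.20 with all libraries, was called at 0.40.

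The SEG change was next set against the sum of the Erg and Sox17 log2 changes at the same day, which asks whether the combination equals both single effects added. At day 3, 7 of 10 genes were called as departing from the sum, where 36% of all genes did, and at day 7, 5 of 10, where 48.8% did. Eng and Id2 lay below the sum at both days, with differences of -0.64 ± 0.15 and -1.94 ± 0.12 at day 3 and of -0.82 ± 0.15 and -1.19 ± 0.12 at day 7 on the log2 scale. Smad7 and Id3 lay above it at both days, by 1.04 ± 0.20 and 0.56 ± 0.17 at day 3 and by 1.07 ± 0.20 and 0.80 ± 0.17 at day 7. For Eng and Acvrl1, the 2 single changes had opposite signs and the SEG change had the sign of the Sox17 change at both days. The SEG change of Acvrl1 was not called at day 3. SEG libraries lay between Erg and Sox17 libraries for Acvrl1 at both days and for Eng at day 3. Eng at day 7 overlapped between SEG and Sox17 libraries. The departure of Acvrl1 from the sum was not called at day 7 (0.17, adjusted p = 0.40). Bmp4 was below the sum at day 3 (-0.71 ± 0.15, adjusted p = 0.00090) and not called at day 7 (0.34 ± 0.15, adjusted p = 0.062). Smad6 was called above it at day 7 (0.72 ± 0.14, adjusted p = 0.00039). The remaining calls at day 3, Acvrl1 (-0.46 ± 0.17, adjusted p = 0.035) and Id1 (-0.84 ± 0.28, adjusted p = 0.026), were lost in 10 and in 2 of the 12 fits that left out 1 library. SEG libraries carried less Erg and, at day 3, less Sox17 transcript than the single conditions, so a departure from the sum and a lower dose of the factors cannot be told apart.

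**Figure D4:**
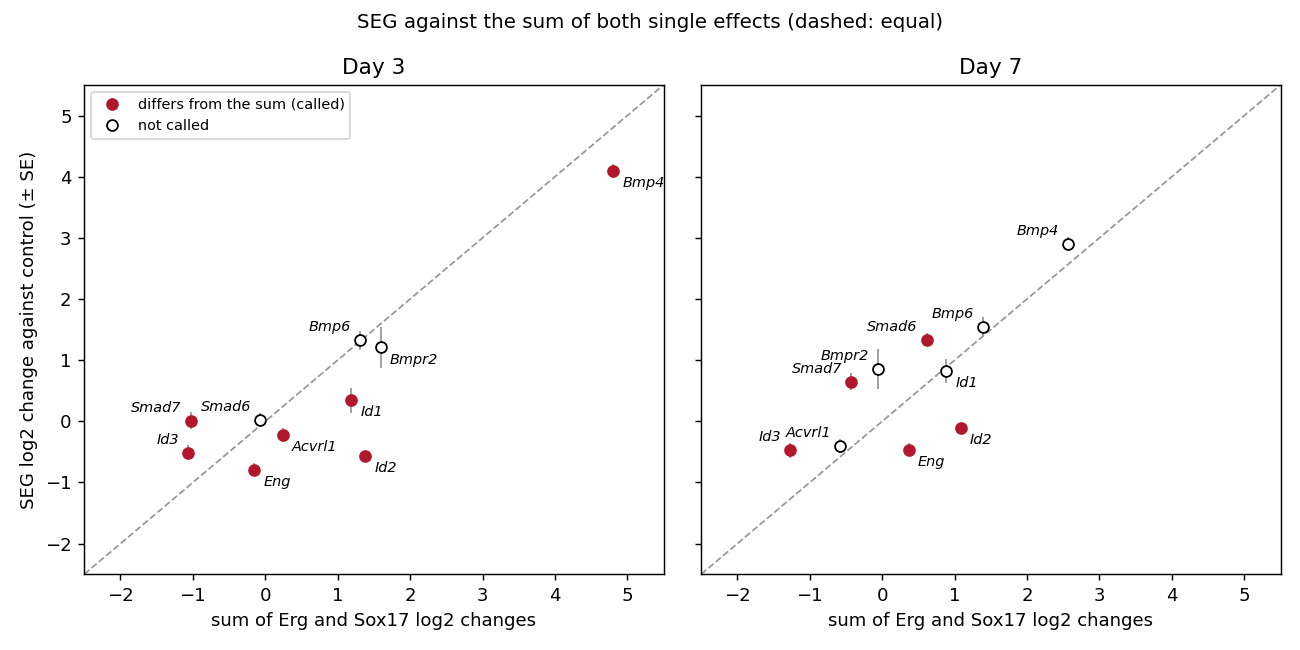
SEG log2 change against control (y axis, bars ± SE of the SEG change) against the sum of the Erg and Sox17 log2 changes (x axis) for the 10 genes at day 3 and day 7, with filled points for a called departure from the dashed line of equality. Id2 and Eng lie below the line and Smad7 and Id3 above it at both days.

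Between the days, the inhibitory Smads and Id genes of SEG and Sox17 libraries were higher at day 7 than at day 3. In SEG, 7 of 10 genes were called, all higher at day 7, where 27.2% of all genes were called and 14.3% were called higher. In Sox17, 7 were called, all higher, where 29.5% of all genes were called and 16.6% were called higher. In a fit of only the Sox17 libraries, Id2 and Id3 were still called, while Smad6 (adjusted p = 0.051), Smad7 (0.12), Id1 (0.085), Eng (0.23) and Bmp4 (0.21) were not, with changes of the same direction. Erg had 3 calls, where 30% of all genes were called, and control had 4, where 29.5% were. Smad6 had a day 7 against day 3 log2 change of 1.26 ± 0.10 in SEG (adjusted p = 2.0e-08), -0.21 in Erg, 0.79 ± 0.10 in Sox17 (adjusted p = 8.3e-06) and -0.05 in control libraries. Smad7 had 0.89 ± 0.14 in SEG (adjusted p = 6.1e-05), 0.31 in Erg, 0.81 ± 0.14 in Sox17 (adjusted p = 0.00020) and 0.26 in control libraries. Id2 had 1.20 in SEG, -0.11 in Erg, 1.28 in Sox17 and 0.74 in control libraries, all but the Erg value called. The other called changes were Eng in SEG (0.49), Erg (0.39) and Sox17 (0.44), Id1 in SEG (1.05), Sox17 (1.18) and control (0.57), Id3 in SEG (0.54), Sox17 (0.94) and control (0.50), Bmp4 in all 4 conditions and Acvrl1 in Erg (-0.56).

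Replicate 1 of Sox17 at day 7 weighed on these day changes. Without it, the Sox17 change of Eng was 0.25 and that of Id1 0.74, while Acvrl1 (-0.26) and Bmp6 (0.34) became called. The Bmp4 calls in SEG (0.33) and Sox17 (0.32) were lost in 3 and in 2 of the 6 fits that left out 1 library, and the Id1 call in control was lost in all 6 (0.50 to 0.61).

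A test of the change of each factor's effect between the days called 4 of 10 genes for SEG, 5 for Erg and 3 for Sox17, where 11.9%, 19.7% and 14.3% of all genes were called. The effect on Bmp4 was smaller at day 7 in all 3 conditions, with differences of -1.20 ± 0.15 in SEG, -1.03 ± 0.15 in Erg and -1.21 ± 0.15 in Sox17, which share the control libraries. The effect on Smad6 was larger at day 7 by 1.31 ± 0.15 in SEG (adjusted p = 3.4e-06) and 0.84 ± 0.14 in Sox17 (adjusted p = 0.00038). The Erg effects on Acvrl1 (-0.68), Id1 (-0.91), Id2 (-0.84) and Id3 (-0.64) were all lower at day 7. Id2 went the other way in SEG (0.46) and Sox17 (0.55), and Smad7 in SEG (0.63, adjusted p = 0.042) was called narrowly, with the call lost in 11 of 12 fits that left out 1 library. The Id1 call in Erg was lost in 6 of 12 such fits.

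The other genes of the pathway were counted from 7 lists of 73 genes, of which 65 were tested. The calls below are against control, to be read beside the shares of all genes called higher and lower that are given above, and the median log2 change of all genes lay between -0.02 and 0.05 in these comparisons. Of 10 other BMP-type ligands tested, 1 was higher and 3 lower in SEG, 2 higher and 5 lower in Erg and 3 higher and 4 lower in Sox17 at day 7, with list medians of 0.03, -0.55 and -1.05. At day 3 the counts were 1 and 3 in SEG, 1 and 3 in Erg and 4 and 2 in Sox17 (medians -0.61, -0.46 and -0.44). The ALK1 ligands Gdf2 and Bmp10 were too low to be tested, and no library passed 0.355 CPM of either. Inhbb, the activin B subunit, was at 18.5 ± 1.30 CPM in SEG and 7.74 ± 0.971 CPM in Sox17 libraries at day 3, against 312 ± 17.1 CPM in control libraries (SD, log2 changes -4.07 and -5.33). Gdf10, a BMP3-like ligand, rose with Sox17 to 95.4 ± 11.2 CPM at day 7, against 1.28 ± 0.374 CPM in control libraries (log2 change 6.19 ± 0.32). Bmp2, a close relative of Bmp4, rose with Erg at day 7 to 8.04 ± 1.58 CPM, against 1.54 ± 0.406 CPM in control libraries (log2 change 2.36 ± 0.30).

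Of 11 other receptors and coreceptors tested, 2 were higher and 2 lower in SEG, 1 higher and 5 lower in Erg and 4 higher and 7 lower in Sox17 at day 7, with list medians of 0.05, -0.15 and -0.76. At day 3 the counts were 3 and 2 in SEG, 1 and 3 in Erg and 5 and 4 in Sox17 (medians 0.10, 0.05 and -0.28). Tgfbr3 (betaglycan), a coreceptor related to endoglin, was lower in all 3 conditions at day 7, at 29.3 ± 7.33 CPM in SEG, 56.0 ± 8.92 CPM in Erg and 38.3 ± 17.7 CPM in Sox17 libraries, against 197 ± 11.6 CPM in control libraries. Acvr2a, a type II receptor for activins and BMPs, rose with Sox17 by 1.46 ± 0.29 at day 3 and 1.45 ± 0.28 at day 7. Of the 6 Smad transducers, 0 rose at day 7, and 3 fell in SEG, 4 in Erg and 3 in Sox17 (medians -0.35, -0.44 and -0.46). At day 3, 0 rose and 3 fell in SEG, 0 rose and 1 fell in Erg and 2 rose and 2 fell in Sox17 (medians -0.23, -0.03 and -0.29). At day 7 Smad5, a BMP transducer, was at 45.3 ± 5.04 CPM in SEG, 46.0 ± 0.635 CPM in Erg and 40.3 ± 4.47 CPM in Sox17 libraries, against 64.0 ± 0.859 CPM in control libraries, and all 3 differences were called. Smad3, which carries TGF-beta signals, had day 7 log2 changes of -1.12 ± 0.15 in SEG, -0.41 ± 0.14 in Erg and -1.27 ± 0.15 in Sox17, all called.

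Of 13 BMP antagonists and decoys tested, 6 were higher and 5 lower in SEG, 2 higher and 7 lower in Erg and 7 higher and 5 lower in Sox17 at day 7 (medians 0.53, -0.83 and 0.25). At day 3 the counts were 4 and 5 in SEG, 4 and 5 in Erg and 5 and 7 in Sox17 (medians 0.11, -0.25 and -0.56). Fst (follistatin), which traps activins and some BMPs, was at 83.2 ± 5.21 CPM in SEG, 44.7 ± 2.58 CPM in Erg and 229 ± 50.5 CPM in Sox17 libraries at day 3, against 17.3 ± 1.75 CPM in control libraries, and rose in all 3. Bmper, a BMP-binding regulator of vessel growth, was lower in all 3 at day 7 (SEG -2.14 ± 0.12, Erg -2.28 ± 0.12, and Sox17 -1.95 ± 0.12). Sostdc1, a secreted BMP antagonist, was at 106 ± 20.9 CPM in Sox17 libraries at day 7 and had 0 counts in the control libraries of that day. With a floor of 3 counts over the control group this is at least 2229-fold higher. Nog (noggin), which binds Bmp4, was at 6.11 ± 0.744 CPM in Sox17 libraries at day 7, against 0.154 ± 0.0513 CPM in control libraries. Chrdl1, a chordin relative, was at 15.3 ± 3.42 CPM in SEG libraries at day 7, against 0.346 ± 0.24 CPM in control libraries.

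Of 10 other target genes of BMP and ALK1 signalling tested, 6 were higher and 1 lower in SEG, 3 higher and 2 lower in Erg and 6 higher and 1 lower in Sox17 at day 3 (medians 0.92, 0.16 and 0.79). At day 7 the counts were 6 higher and 2 lower in SEG, 6 higher and 1 lower in Erg and 5 higher and 2 lower in Sox17 (medians 1.68, 0.70 and 0.79). Hey1, a repressor that answers to Notch and ALK1, was at 173 ± 4.19 CPM in SEG libraries and 44.3 ± 2.86 CPM in Sox17 libraries at day 7, against 0.512 ± 0.0776 CPM in control libraries. Gja4 (connexin 37), an arterial gap junction protein, was at 123 ± 20.1 CPM in SEG and 7.72 ± 2.29 CPM in Sox17 libraries at day 7, against 4.08 ± 1.39 CPM in control libraries. Atoh8, a BMP-responsive bHLH factor, was lower with Sox17 at day 3, at 25.0 ± 3.24 CPM in Sox17 libraries against 133 ± 9.42 CPM in control libraries. The endothelial marker sum given above was also higher in these groups, and its part in the target gene results was not tested.

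The bHLH partners of Id proteins and the TGF-beta response genes complete the lists. Of 7 bHLH genes, 3 were higher and 3 lower in SEG, 0 higher and 6 lower in Erg and 1 higher and 3 lower in Sox17 at day 7 (medians -0.19, -0.63 and 0.02). At day 3 the counts were 3 and 3 in SEG, 0 and 5 in Erg and 3 and 3 in Sox17 (medians 0.08, -0.66 and 0.16). At day 7 the fibroblast factor Tcf21 was at 38.7 ± 0.396 CPM in SEG, 126 ± 5.53 CPM in Erg and 45.7 ± 3.68 CPM in Sox17 libraries, against 333 ± 28.0 CPM in control libraries, and it is also among the 8 fibroblast markers. Tcf3, which encodes an E protein that Id proteins bind, was at 119 ± 10.3 CPM in SEG and 81.9 ± 6.03 CPM in Sox17 libraries at day 7, against 60.0 ± 1.0 CPM in control libraries. Of 8 TGF-beta response genes, 5 were higher and 2 lower in SEG, 2 higher and 5 lower in Erg and 3 higher and 4 lower in Sox17 at day 7 (medians 0.36, -0.66 and -0.12). At day 3 the counts were 2 and 4 in SEG, 0 and 4 in Erg and 2 and 4 in Sox17 (medians -0.22, -0.79 and -0.34). Tgfbi fell by 5.0 on the log2 scale in SEG at day 7, to 3.74 ± 1.09 CPM against 119.9 ± 4.78 CPM in control libraries.

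**Figure D5:**
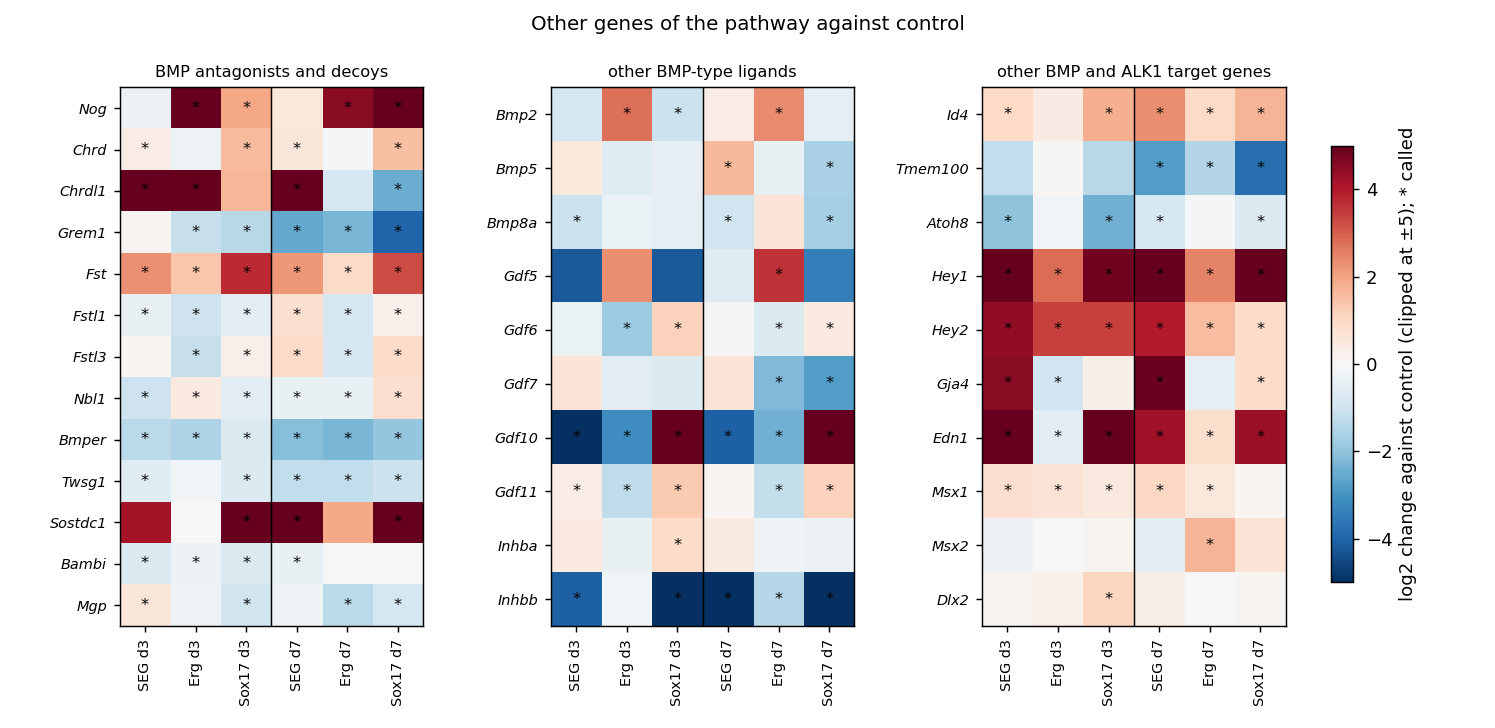
Log2 change against control (colour, limited at 5 in each direction) of the antagonists, other ligands and other target genes in SEG, Erg and Sox17 libraries at day 3 and day 7, with an asterisk where the change was called. Fst is higher and Bmper lower in all 6 columns, Inhbb is lower with SEG and Sox17, and strong colours without an asterisk belong to genes with few counts.

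Genes with profiles like those of the 10 were found by the root mean square difference of centred log2 CPM over the 24 libraries, among 9207 named genes with at least 10 CPM on average. The nearest gene to Acvrl1 was Nucb2 (0.195), and the nearest to Eng was Plod1 (0.202). Bmpr2 was nearest to Pou2f1 (0.191) and Bmp6 to Zbtb18 (0.196). Bmp4 was nearest to Pmaip1 (0.481) and then Dusp6 (0.520), the widest nearest distance of the 10 genes. Its own root mean square spread was also the largest, at 1.31 against 0.488 to 0.790 for the others. The distance is not scaled by that spread, so it does not rank the genes by likeness of shape. Smad6 was nearest to Ece1 (0.255), Smad7 to Pik3ip1 (0.281), Id1 to Ypel3 (0.223) and Id2 to Hcn2 (0.289). Id3 was nearest to Hes1 (0.159). Within the 10 genes, the closest pairs were Smad6 with Smad7 (0.348), Acvrl1 with Eng (0.384) and Id1 with Smad6 (0.384), all wider than the distance of these genes to their nearest other gene.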

How the data were processed

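The authors deposited a table of raw read counts per gene, whole numbers without scaling, that covers 24 libraries. The tools named in the submitters' processing notes are Salmon and DESeq2, and the build is mm10. The sources used here do not give their versions, the strand setting or whether estimated counts were rounded. Library totals ran from 18794422 to 44586227 counts. The 10 genes, the 7 pathway lists and the marker lists were chosen with earlier results of these data known. The genes named from the pathway lists come from up to 4 called genes per list and comparison with the largest change and at least 5 CPM in either group.

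The counts were fitted in edgeR 4.0.16 under R 4.3.3. Genes passed filterByExpr (minimum count 10), libraries were scaled by TMM, and a quasi-likelihood model of 8 group means was fitted to all libraries. The 19 comparisons used 2-sided tests, and a call needed an adjusted p under 0.05 (Benjamini-Hochberg, over 14804 genes). The SE is the absolute log2 change over the square root of the F value. Counts of 14804 genes were simulated for SEG against control at day 7. The fit recovered 74 of 100 genes with a 2-fold change and 92 of 100 with a 4-fold change, with 6 false calls among the unchanged genes. When day 7 was simulated to differ from day 3 in the SEG effect, recovery was 45 of 100 for 2-fold and 84 of 100 for 4-fold changes, with 8 false calls. Apart from these planted changes, each simulated gene had the same mean in all groups, and no outlying library was simulated. In the data, 44.3% of all genes were called in SEG against control at day 7. The simulated rates therefore belong to a simpler setting than these data. Coordinates and exon lengths are from GENCODE on GRCm38, and promoter windows from RefSeq on GRCm38.p6.

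Same-numbered libraries deviated together between SEG and Sox17 at day 7 (correlations 0.69, 0.40 and 0.44), and that pairing was used as a block, a choice made after seeing the data. Of the pairs of groups that a comparison sets side by side, no other did so for every number. No pair of replicates agreed within sampling noise. The alternatives were RLE factors, fits without the filter, the replicate number as a block, fits of only the groups compared, each library left out, both outlying libraries left out, and DESeq2 1.42.0.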

Additional observations from a re-analysis of the deposited data

Results flagged for a closer look

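For 12 combinations of gene and condition, the change against control differed between day 7 and day 3 by the test of that difference in edgeR's quasi-likelihood fit. Values are the day 7 minus the day 3 log2 change, and each rests on 3 libraries a group. The effect on Bmp4 differed by -1.20 in SEG, -1.03 in Erg and -1.21 in Sox17. The effect on Smad6 differed by 1.31 in SEG and 0.84 in Sox17. Id2 differed by 0.46 in SEG, -0.84 in Erg and 0.55 in Sox17. For Smad7 in SEG the value was 0.63. In Erg, Acvrl1 differed by -0.68, Id1 by -0.91 and Id3 by -0.64. The control libraries are shared by all 3 conditions, so the Bmp4 values are not independent of each other. Control Bmp4 itself was higher at day 7, at 2.89 times its day 3 mean. The same ratio was 1.26 in SEG, 1.41 in Erg and 1.24 in Sox17 libraries.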

How the results depend on the processing

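Of 190 results for the 10 genes, no called change reversed its direction under any alternative run. With only the groups compared in the fit, SEG against Sox17 had 7 of 10 genes called at day 3 and 3 at day 7. Between the days, 8 were called for Erg, 2 for Sox17 and 9 for control. The whole fit gave 4, 6, 3, 7 and 4 in the same order. Of all genes, those fits called 6570, 2174, 7058, 857 and 7856. The whole fit called 4184, 5910, 4447, 4368 and 4368 of all genes. Leaving out replicate 1 of Sox17 and SEG at day 7 gave 7 called genes each for the change of the SEG and Sox17 effects. With all libraries 4 and 3 were called, and leaving out 1 library gave 3 to 5 for Sox17. Of all genes, 3774 and 3695 were called without both libraries, against 1756 and 2113 with all libraries. Leaving out 1 library gave 1592 to 3199 of all genes for Sox17. The cause of these moves was not tested. With the replicate number as a block in the whole fit, 1 call of the 10 genes was lost, Bmpr2 in SEG at day 7 (0.83, adjusted p = 0.059), and no other changed. Libraries of different groups share only a number, and the labels give no pairing.

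Uncalled values near 0 changed sign. Smad6 in SEG against Erg at day 3 was -0.033 with RLE factors, -0.0088 without the filter, -0.015 with only these groups in the fit and -0.032 with DESeq2. Bmp6 against the sum at day 3 was -0.018 with RLE factors and with DESeq2, and -0.025 without the filter and with only the groups compared. Without both outlying libraries, Id1 in SEG against Sox17 at day 7 was 0.11, Bmpr2 in SEG between the days 0.22, Id3 in the change of the SEG effect -0.039, Bmp6 in the change of the Sox17 effect 0.24 (called, adjusted p = 0.026), and against the sum at day 7 Bmp6 was -0.050 and Id1 0.16. Leaving out 1 library gave these ranges. Against control at day 3 they were -0.034 to 0.073 for Smad6 and -0.019 to 0.048 for Smad7 in SEG, and -0.037 to 0.096 for Smad6 in Erg. At day 7 Bmpr2 in Sox17 ran from -0.028 to 0.59. In SEG against Erg, Smad6 at day 3 ran from -0.069 to 0.032 and Id3 at day 7 from -0.16 to 0.020. In SEG against Sox17, Bmpr2 at day 3 ran from -0.066 to 0.31 and Id1 at day 7 from -0.35 to 0.28. Between the days, Bmpr2 in SEG ran from -0.33 to 0.21, and in Sox17 Acvrl1 ran from -0.26 to 0.10 and Bmp6 from -0.045 to 0.34. For the change of effect, Id3 in SEG ran from -0.039 to 0.097, and in Sox17 Acvrl1 from -0.38 to 0.0010 and Bmp6 from -0.17 to 0.20. Against the sum, the Bmp6 range was -0.0089 to 0.053 for day 3 and -0.090 to 0.27 for day 7, and the Id1 range for day 7 was -0.29 to 0.38. The scatter of Bmpr2 between the 3 libraries of a group was wider than its counting error at this depth.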
